A study of Mus musculus with 18 samples.

Results

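The 10 genes described here are textbook targets of the transcription factor p53 and were followed through 6 groups of cultured mouse CD8 T cells. They were Cdkn1a, Ccng1, Btg2 and Plk2, which act on the cell cycle, Mdm2 and Phlda3, which act on p53 or on AKT, and Pmaip1, Bbc3, Bax and Perp, which act in cell death. They were taken by gene symbol, as protein-coding genes, from a table of 23414 genes, and 10 of 10 were found and tested. They were chosen by measured values of these libraries, being the targets that rose most in antigen-stimulated cells labelled knockout and fell with a PI3K delta inhibitor. Values in those contrasts are therefore given as a description without a test.

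The cells were CD8 T cells sorted from cultured splenocytes of P14 mice, whose transgenic T cell receptor recognises the gp33 peptide of a lymphocytic choriomeningitis virus protein. TrIP, a transmembrane inhibitor of PI3K encoded by Pik3ip1, was intact in the wild-type (WT) mice and knocked out in CD8 cells of the others (KO). All 6 groups, controls included, spent 24 h with 50 U/ml of IL-2 and 2 ng/ml of IL-12. Within each genotype 1 group had no peptide and another had 100 ng/ml of gp33, and the last had this gp33 dose plus 10 µM of IC87114, which blocks the catalytic subunit of PI3K delta. The groups without peptide come from sample titles and treatment labels, while the protocol text shared by all samples speaks of peptide stimulation throughout, so "without peptide" means as titled. There were 3 libraries in each group and 18 in all. The age and sex of the mice, the Cre line behind the knockout and whether replicates came from separate animals are not given in the sources used here, so p-values measure only the spread between these libraries.

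In unstressed cells the ubiquitin ligase MDM2 keeps p53 scarce, and stress signals release it. Released p53 binds pairs of short half-sites near its targets and raises their transcription, among them the cell cycle brake p21 (Cdkn1a), its own inhibitor Mdm2, and genes of the mitochondrial death pathway. In T cells, p53 and p21 are known as brakes on the proliferation that follows antigen, and BH3-only proteins such as NOXA (Pmaip1) and PUMA (Bbc3) take part in the death of activated cells.

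Expression values were read as log2(value + 1) and turned back to linear normalized values, whose sums per library ran from 521782 to 630652. The sequencing depth is unknown, so no counting error is given. Levels of different genes are not compared, because the sources do not state whether the unit is per length. Between 61.1 and 72.9% of each sum lay on pseudogenes, and reads of a gene with processed copies may be split with them. Mean correlation with the other libraries of the same group was 0.974 for WT replicate 2 with inhibitor, the lowest of the 18. Pik3ip1, the targeted gene, went against the label. It averaged 76.1 ± 2.36 (SD, n = 3) in unstimulated libraries labelled KO against 31 ± 2.43 in WT, 1.61 ± 0.0687 against 0.764 ± 0.105 with gp33, and 2.42 ± 0.213 against 0.632 ± 0.0213 with inhibitor. Gene-level values do not show which exons were read, and every difference between genotypes below is one between libraries as labelled. Cd8a stood at 96 to 268 in all 18 libraries and Cd8b1 at 24.3 to 157, while the summed level of 4 CD4 T cell genes was at most 1.67.

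Genes of other cells were present and differed between the labels. The summed level of 10 B cell genes was 569 to 756 in unstimulated WT and 416 to 639 in unstimulated libraries labelled KO, and 59.8 to 109 over the 4 groups given gp33. Ighm had most of that sum. For 10 myeloid and dendritic genes the sum was 76.5 to 160 in unstimulated libraries labelled KO against 2.15 to 31.5 in WT. With gp33 that sum was 5.88 to 18.1 against 0.288 to 3.07, and with inhibitor 7.29 to 44.6 against 0.258 to 11. Lyz2 and S100a8 contributed most to the sum in unstimulated libraries labelled KO, while Csf1r, Itgam and Adgre1 stayed at or below 0.104. Without peptide Csf1r averaged 0.102 in libraries labelled KO against 0.0482 in WT, Itgam 0.0198 against 0.00134 and Adgre1 0.0297 against 0.0356. The sum of 6 NK cell genes was 12.2 to 14.6 against 2.39 to 3.59 without peptide and 1.58 to 2.11 against 0.141 to 0.545 with gp33, and with inhibitor 1.07 to 3.29 against 0.0987 to 1.17, which overlap. Fcer1g and Tyrobp, which myeloid cells also express, had most of it. The defining gene Ncr1 was listed at 0 in all 9 WT libraries and averaged 0.671 in unstimulated libraries labelled KO, while Klrb1c was at 0.434 in unstimulated WT against 0.262. The part of these cells in the values below was not tested, and in bulk RNA fewer cells of a type and less RNA per cell cannot be told apart.

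The promoters of some of these genes carry recognisable p53 half-sites, and 4 are shown because the half-site lies within the 250 bases before an annotated start. Sequences are RefSeq promoter windows on GRCm38.p6, 300 bases long from 250 before to 50 after a start, and 8 of the 10 genes had at least 1 window. The search used the p53 half-site decamer, which is 3 purines, then C, 2 bases that are A or T, and G, then 3 pyrimidines, a pattern that reads alike on both strands. Only the 250 bases before the start are printed, 5′ to 3′ on the gene's strand, with exact half-site matches in capitals.
Cdkn1a (chr17:29090729-29090978, plus strand): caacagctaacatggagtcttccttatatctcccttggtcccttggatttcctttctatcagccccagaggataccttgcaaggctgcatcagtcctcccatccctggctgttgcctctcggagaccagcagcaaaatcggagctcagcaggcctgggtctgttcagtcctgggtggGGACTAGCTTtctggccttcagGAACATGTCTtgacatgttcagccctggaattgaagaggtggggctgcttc
Mdm2 (chr10:117710759-117711008, minus strand): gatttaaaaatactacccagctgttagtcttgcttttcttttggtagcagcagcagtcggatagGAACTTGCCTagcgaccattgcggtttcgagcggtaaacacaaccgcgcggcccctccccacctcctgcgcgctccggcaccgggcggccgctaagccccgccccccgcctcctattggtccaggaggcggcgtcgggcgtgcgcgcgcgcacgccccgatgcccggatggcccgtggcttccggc
Ccng1 (chr11:40755287-40755536, minus strand): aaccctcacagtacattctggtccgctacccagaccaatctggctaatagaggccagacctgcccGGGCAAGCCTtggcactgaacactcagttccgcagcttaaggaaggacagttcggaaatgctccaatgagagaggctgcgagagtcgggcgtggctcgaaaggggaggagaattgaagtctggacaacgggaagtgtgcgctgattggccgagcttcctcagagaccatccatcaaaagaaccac
Bax (chr7:45466899-45467148, minus strand): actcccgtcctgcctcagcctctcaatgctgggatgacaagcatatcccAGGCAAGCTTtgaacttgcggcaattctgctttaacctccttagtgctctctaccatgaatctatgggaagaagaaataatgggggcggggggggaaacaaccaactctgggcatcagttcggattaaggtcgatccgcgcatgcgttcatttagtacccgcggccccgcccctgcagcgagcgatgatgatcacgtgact

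In the Cdkn1a window the half-sites began at positions -73 and -51 from the start, with 12 bases between them. This was the more upstream of its 2 annotated starts, which lie 2790 bases apart, and the other window held none. The Mdm2 half-site began at position -186, that of Ccng1 at -185 and that of Bax at -201. A half-site was present in 4 of the 8 genes with a window (50%), against 9.55% of 27025 genes with windows of the same length. A wider search asked for 2 decamers with intact cores, at most 13 bases between them and at most 2 mismatches over both together. Neither had to be an exact match. Cdkn1a and Bax qualified (25% of 8), against 2.47% of all genes. The windows of Btg2, Plk2, Phlda3 and Bbc3 held no match, which says only that these letters are not in these windows. A match is a description of sequence and not evidence of binding.

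**Figure D1:**
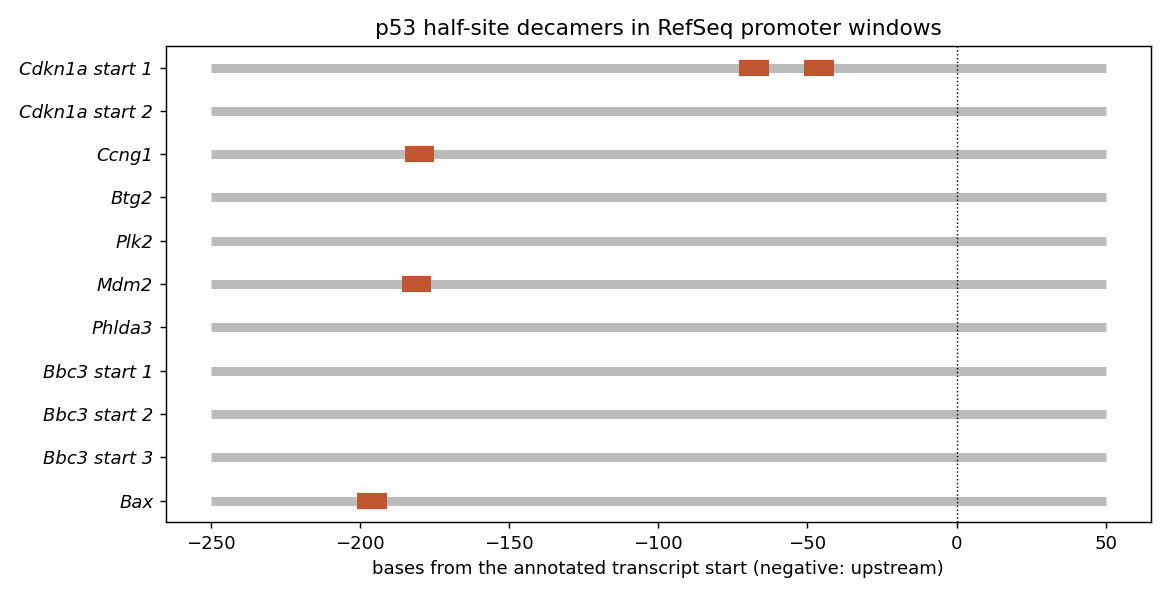
Half-site decamers (orange) in each RefSeq promoter window of the p53 target genes (grey bars), plotted by distance in bases from the annotated transcript start (dotted line). Cdkn1a, Ccng1, Mdm2 and Bax have at least 1 match upstream of a start, and the Cdkn1a pair lies nearest to it.

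The group labelled KO with gp33 had the highest mean of the 6 groups for 9 of the 10 genes, and for 8 of them its 3 libraries lay above the other 15. The choice of genes used this group, so these counts only describe it, and their share over all genes was not computed. Its mean was 2.14 (Bax) to 8.95 times (Plk2) that of stimulated WT cells, with a median ratio of 5.96. All 10 genes were higher with no overlap in that comparison, which the choice of genes fixes, beside 30.1% of the 10257 genes tested (14.9% called higher). Within libraries labelled KO the mean with gp33 was above that without peptide for 9 of 10 genes, and Btg2 stood at 0.867 times. The median log2 fold change of the 10 was 2.93 there against 0.2 over all genes tested. Of all genes 41.1% were called higher, a stricter condition than a higher mean. With IC87114 the same cells stood at 5.94 (Plk2) to 38.4% (Bax) of their level with gp33 alone, with a median of 14.6%. All 10 were lower with no overlap, beside 35.5% of all genes tested (19.3% called lower). In WT cells IC87114 left 19.3 (Plk2) to 82.4% (Bax) of the stimulated level, with a median of 53.7% and all 10 means lower. A lower mean is a weaker condition than a call, and 5.15% of all genes were called lower. The median log2 fold change of the 10 was -0.52 in WT against -0.046 over all genes tested. Inhibited cells labelled KO stood at 0.425 (Cdkn1a) to 1.76 times (Pmaip1) stimulated WT cells, and Pmaip1 was the 1 gene of 10 above WT.

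**Figure D2:**
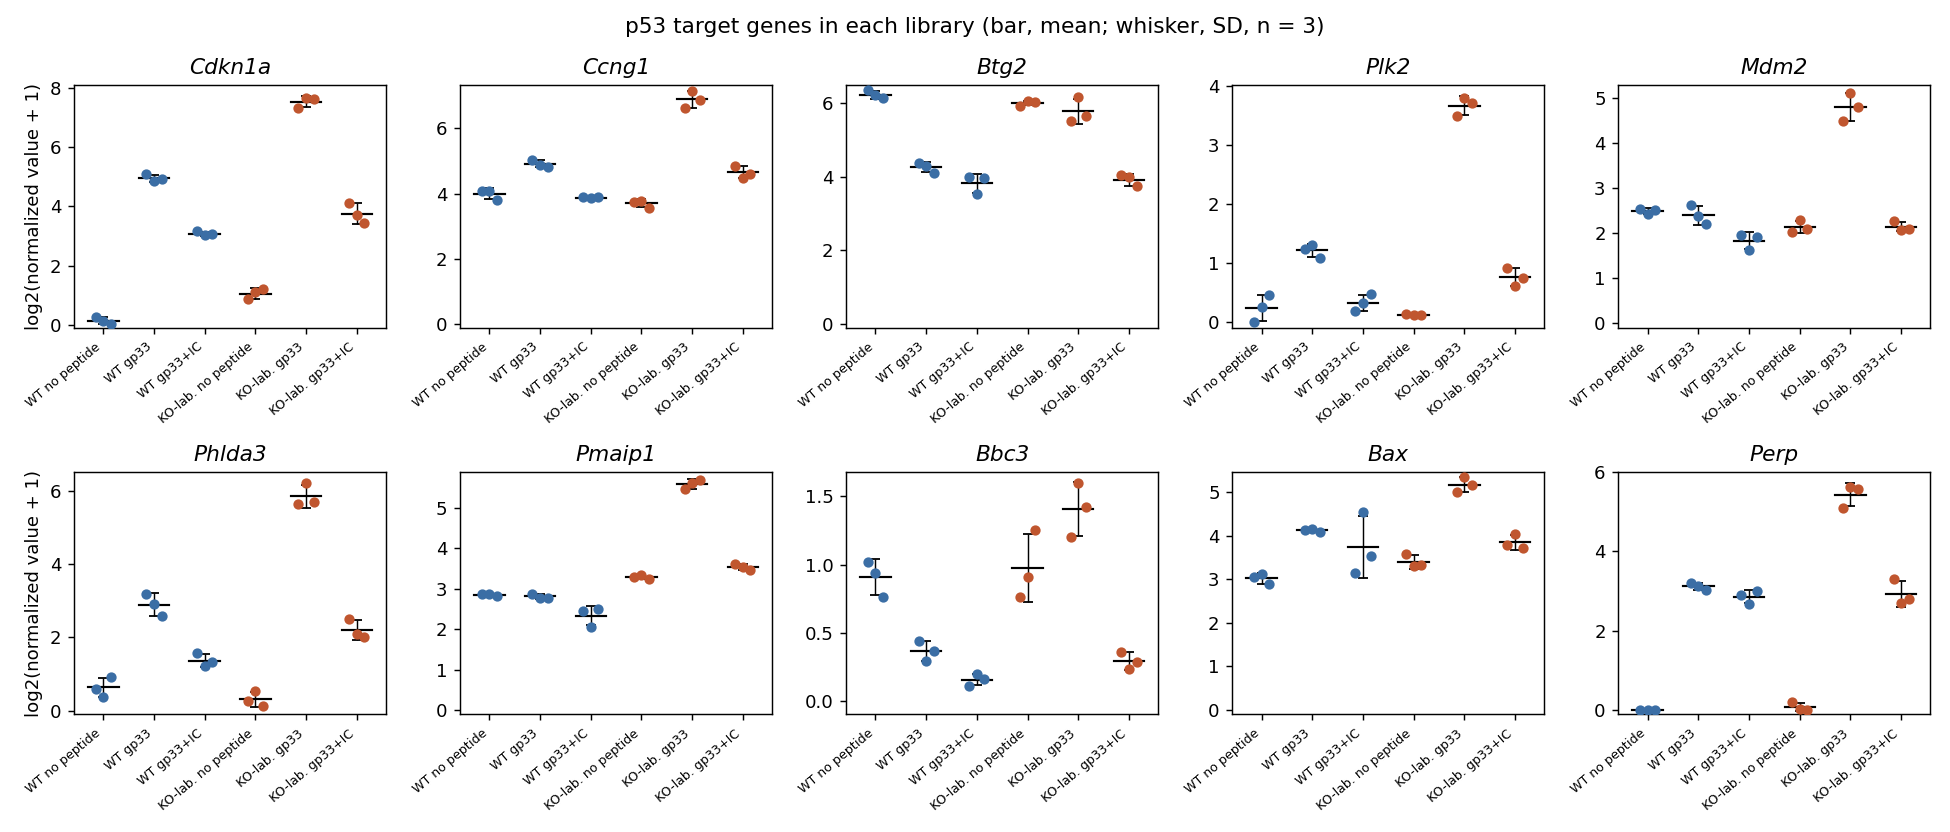
Each panel shows 1 p53 target gene as log2(normalized value + 1) in the 18 libraries, with WT in blue and libraries labelled KO in orange. Bars are group means and whiskers SD (n = 3). Stimulated libraries labelled KO, which the choice of genes used, sit above all other libraries for 8 genes, while Btg2 and Bbc3 overlap with unstimulated groups.

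Cdkn1a (ENSMUSG00000023067) encodes p21, which binds and inhibits cyclin-dependent kinases. Values are given for replicates 1, 2 and 3 in turn. WT libraries had 0.192, 0.0995 and 0.0171 without peptide, 32.9, 28 and 29.5 with gp33, and 7.91, 7.13 and 7.42 with gp33 and IC87114. Libraries labelled KO had 0.809, 1.13 and 1.32 without peptide, 159, 202 and 197 with gp33, and 16.4, 12.2 and 9.85 with inhibitor. No neighbouring groups in the order of means overlapped: labelled KO with gp33 was highest, followed by WT with gp33, labelled KO with inhibitor, WT with inhibitor, labelled KO without peptide and WT without peptide. The mean was 186 ± 23.5 in stimulated libraries labelled KO and 30.1 ± 2.5 in stimulated WT. In WT alone gp33 raised Cdkn1a by 4.82 on the log2(value + 1) scale (SE 0.15, limma adjusted p = 1.85e-12), the largest rise of the 10 genes.

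Ccng1 (ENSMUSG00000020326) encodes cyclin G1, which recruits a phosphatase to MDM2. Without peptide it stood at 16.1, 16.1 and 12.9 in WT and at 12.5, 12.8 and 10.8 in libraries labelled KO. Stimulation gave 31.7, 28.4 and 27.3 in WT against 98.3, 141 and 117 in libraries labelled KO. With inhibitor WT returned to 13.8, 13.5 and 13.8, within the range of unstimulated WT, whereas libraries labelled KO had 27.8, 21.4 and 23.5, above their unstimulated range. The log2 fold change of gp33 in WT was 0.91 (SE 0.13, limma adjusted p = 1.76e-05).

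Btg2 (ENSMUSG00000020423), an antiproliferative factor that promotes mRNA deadenylation, differed from the other genes in that resting WT cells had the most. Unstimulated WT libraries had 80.6, 72.9 and 69.4 and fell to 19.7, 18.4 and 16.2 with gp33. In libraries labelled KO the values were 59.9, 65.2 and 64.1 without peptide and 44.8, 70.3 and 48.9 with gp33, and these groups did not separate. IC87114 left 14.8, 10.5 and 14.5 in WT and 15.4, 14.9 and 12.3 in libraries labelled KO, so that the genotypes overlapped again. gp33 lowered Btg2 in WT by 1.98 on the log2 scale (SE 0.16, limma adjusted p = 3.67e-08), and stimulated libraries labelled KO overlapped with resting ones of that label.

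Plk2 (ENSMUSG00000021701), a polo-like kinase with a role in centriole duplication, was near the floor outside stimulation. WT libraries had 0, 0.195 and 0.365 without peptide, 1.36, 1.47 and 1.12 with gp33, and 0.136, 0.242 and 0.381 with inhibitor. Those labelled KO had 0.0968, 0.0797 and 0.0811, then 10.2, 12.9 and 12.1 with gp33 and 0.887, 0.531 and 0.675 with inhibitor. The stimulated groups of the 2 labels lay far apart for their spread, at 11.7 ± 1.36 against 1.31 ± 0.179. The WT rise was 0.97 (SE 0.12, limma adjusted p = 3.3e-06) on the log2(value + 1) scale, which understates changes of genes this low.

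Mdm2 (ENSMUSG00000020184), the ubiquitin ligase that targets p53 and is itself a p53 target, moved little with gp33 in WT cells. WT values were 4.8, 4.37 and 4.72 without peptide, 5.13, 4.18 and 3.58 with gp33, and 2.89, 2.08 and 2.79 with inhibitor. In libraries labelled KO it went from 3.1, 3.88 and 3.26 to 21.7, 33.8 and 27.1 with gp33 and back to 3.81, 3.22 and 3.27 with inhibitor. Stimulated libraries labelled KO were the highest, the other unstimulated, stimulated and inhibited groups overlapped in a chain, and inhibited WT lay below all of them. The change with gp33 in WT was -0.10 on the log2 scale (SE 0.15, limma adjusted p = 0.559), so a rise was not detected there.

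Phlda3 (ENSMUSG00000041801) encodes a small pleckstrin-homology protein that competes with AKT for membrane lipids. Unstimulated libraries had 0.519, 0.304 and 0.885 in WT and 0.201, 0.442 and 0.0974 in those labelled KO. With gp33 it reached 8.11, 6.55 and 4.96 in WT and 48.3, 73.1 and 50.6 in libraries labelled KO. IC87114 brought it to 1.95, 1.33 and 1.49 in WT and to 4.69, 3.24 and 3.05 in libraries labelled KO, and in both labels this lay above the unstimulated range. The WT log2 fold change with gp33 was 2.26 (SE 0.20, limma adjusted p = 1.24e-07).

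Pmaip1 (ENSMUSG00000024521) encodes NOXA, a BH3-only protein that neutralises MCL1. Its WT libraries changed little with gp33, with 6.3, 6.35 and 6 without peptide, 6.35, 5.85 and 5.86 with gp33, and 4.43, 3.19 and 4.67 with inhibitor. Libraries labelled KO had 8.7, 9.15 and 8.48 without peptide, 42.8, 48.1 and 50.4 with gp33, and 11.1, 10.6 and 10.1 with inhibitor. The 3 groups labelled KO thus ranked above the 3 WT groups, with no overlap between labels under any condition. In WT the change with gp33 was -0.04 (SE 0.10, limma adjusted p = 0.733).

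Bbc3 (ENSMUSG00000002083) encodes PUMA, a BH3-only protein that binds the BCL2-like survival proteins. It was low everywhere and passed the filter for testing only through the stimulated group labelled KO. WT libraries had 1.03, 0.912 and 0.697 without peptide, 0.357, 0.227 and 0.289 with gp33, and 0.0806, 0.146 and 0.115 with inhibitor. The libraries labelled KO had 0.696, 0.879 and 1.38, then 1.3, 2.03 and 1.68, then 0.281, 0.174 and 0.219. As with Btg2, stimulation lowered it in WT (log2 fold change -0.54, SE 0.12, limma adjusted p = 0.000866), and stimulated libraries labelled KO overlapped with unstimulated ones of that label.

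Bax (ENSMUSG00000003873), the pore-forming death effector, showed the smallest ratio between stimulated labels. Unstimulated WT libraries had 7.24, 7.74 and 6.4 and stimulated ones 16.6, 16.8 and 16. With inhibitor the WT values were 7.85, 22.2 and 10.6, so that replicate 2 stood apart from the other 2 and above stimulated WT. Libraries labelled KO had 10.9, 8.88 and 8.98 without peptide, 30.9, 39.7 and 34.9 with gp33, and 12.8, 15.5 and 12.2 with inhibitor. The rise in WT was 1.11 on the log2 scale (SE 0.25, limma adjusted p = 0.000931).

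Perp (ENSMUSG00000019851), a tetraspan membrane protein linked to apoptosis and to cell adhesion, was listed at 0 or close to it without peptide. Unstimulated WT libraries had 0, 0.00894 and 0 and those labelled KO 0.151, 0.0256 and 0.00976, so no fold is given against them. With gp33 it reached 8.19, 7.69 and 7.21 in WT and 33.2, 48.2 and 46.5 in libraries labelled KO. Of the 10 genes it was among the 2 least affected by IC87114 in WT, with 6.47, 5.43 and 7.04, and libraries labelled KO came down to 8.85, 5.48 and 5.93. Inhibited libraries labelled KO overlapped both with stimulated and with inhibited WT. The WT difference of 3.12 on the log2(value + 1) scale (SE 0.16, limma adjusted p = 2.1e-10) depends on the added 1.

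Stimulation of WT cells, which the choice of genes did not use, divided the 10 genes. The contrasts tested here and below share libraries with those that chose the genes. In WT cells 6 were higher with gp33 (Cdkn1a, Perp, Phlda3, Plk2, Ccng1 and Bax) where 42.1% of all genes tested were, and Btg2 and Bbc3 were lower where 31.6% were. Mdm2 and Pmaip1 were not called. That is 8 of 10 moved beside 73.7% of all genes tested, a share near the background. The median of the 10 was 0.94 on the log2 scale against 0.19 over all genes tested.

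The comparison of unstimulated labels asked whether the genes differed before antigen. Cdkn1a was higher in unstimulated libraries labelled KO, with a mean of 1.08 ± 0.257 against 0.103 ± 0.0872 (log2 fold change 0.91, SE 0.15, limma adjusted p = 0.000861). Pmaip1 was higher too, at 8.78 ± 0.34 against 6.22 ± 0.192 (0.44, SE 0.10, limma adjusted p = 0.0101). These were 2 of 10 genes, where 5.69% of all genes tested were higher, and 0 were lower, where 7.23% were. Unadjusted p under 0.05 would have added Mdm2 (log2 fold change -0.35) and Ccng1 (-0.30), both lower. The Cdkn1a call was lost when 4 rather than 1 was added before the log (adjusted p = 0.111), and over the other alternatives its adjusted p reached down to 1.85e-05. For Bax the difference of 0.38 was called only without WT inhibitor replicate 2 (adjusted p = 0.0452 against 0.374), a library of neither group. The myeloid, NK and erythroid sums (3.52 to 10.3 against 0.224 to 0.626 for the erythroid list) also differed between these groups. Of 9 B cell genes tested, 8 were lower in unstimulated libraries labelled KO, where 7.23% of all genes tested were, and 0 were higher, where 5.69% were. Ighm, with the largest values among them, was not called (-0.32, limma adjusted p = 0.416). The part of these other cells was not tested.

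Under IC87114 with gp33, 4 genes were higher in libraries labelled KO than in WT, where 2.01% of all genes tested were, and 0 were lower, where 2.61% were. At an unadjusted p under 0.05 limma gave 5 higher and 0 lower. Pmaip1 differed most firmly, at 10.6 ± 0.477 against 4.1 ± 0.796 (log2 fold change 1.2, SE 0.10, limma adjusted p = 7.93e-06). Ccng1 was at 24.2 ± 3.26 against 13.7 ± 0.181 (0.77, SE 0.13, limma adjusted p = 0.00301). For Cdkn1a it was 12.8 ± 3.31 against 7.49 ± 0.396 (0.68, SE 0.15, limma adjusted p = 0.0183) and for Phlda3 3.66 ± 0.896 against 1.59 ± 0.32 (0.84, SE 0.20, limma adjusted p = 0.0288). Plk2, at 0.698 ± 0.179 against 0.253, did not pass the threshold (0.44, SE 0.12, limma adjusted p = 0.0519), though it did without any 1 of 4 libraries, WT unstimulated replicate 1 or 3, WT inhibitor replicate 3 or KO stimulated replicate 1 (adjusted p 0.0288 to 0.0473). Mdm2, Bbc3, Btg2, Bax and Perp had adjusted p of 0.281 to 0.843.

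Of these 4 calls, those of Cdkn1a and Phlda3 were fragile. Leaving out WT inhibitor replicate 2 raised the adjusted p to 0.0504 for Cdkn1a and 0.083 for Phlda3. Without KO inhibitor replicate 1 they were 0.0874 and 0.145, and without KO inhibitor replicate 2 they were 0.0561 and 0.0637. Without WT inhibitor replicate 3 Phlda3 stood at 0.0681. With replicate number as a block the adjusted p of Cdkn1a was 0.0552. In a fit of the 2 inhibitor groups alone only Pmaip1 was called, and Ccng1 had an adjusted p of 0.062. Over the alternatives the adjusted p of Pmaip1 ranged from 1.85e-06 to 0.0283. Leaving out WT inhibitor replicate 2 also moved the Bax difference from 0.11 to 0.51, with an adjusted p of 0.0561.

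Compared with cells that saw no peptide, inhibited cells differed for 8 of the 10 genes in each label, a share near that of all genes tested. In WT 4 genes stayed higher than without peptide (Cdkn1a 2.95, Perp 2.86, Phlda3 0.73 and Bax 0.72 on the log2 scale), where 39.6% of all genes tested were. In the other direction 4 were lower (Btg2 -2.41, Bbc3 -0.75, Mdm2 -0.66 and Pmaip1 -0.51), where 33% were, and Ccng1 (-0.12) and Plk2 (0.09) were not called. In libraries labelled KO 6 were higher (Perp 2.85, Cdkn1a 2.71, Phlda3 1.89, Ccng1 0.95, Plk2 0.64 and Pmaip1 0.25), where 39.6% of genes were, and Btg2 (-2.08) and Bbc3 (-0.68) were lower, where 30.9% were. The Pmaip1 call in libraries labelled KO was marginal, with a limma adjusted p of 0.0414 that passed 0.05 when any library of its own 2 groups, or WT stimulated replicate 2 or 3, was left out (up to 0.119). A fit with replicate number as a block gave 0.0582 for this call. Bax, not called there at an adjusted p of 0.112, was called without WT inhibitor replicate 2 (0.00428), and in WT its value was 0.32 rather than 0.72 without that library. The WT call of Bax was lost without WT unstimulated replicate 3 (adjusted p = 0.0535).

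The difference between labels in this change from no peptide to gp33 with IC87114 was tested directly, a contrast added after the data were seen. It was positive for Ccng1 (1.06, SE 0.19, limma adjusted p = 0.00222), Pmaip1 (0.76, SE 0.14, limma adjusted p = 0.00391) and Phlda3 (1.16, SE 0.29, limma adjusted p = 0.0229), 3 of 10 genes where 2.99% of all genes tested were higher, and 0 were lower, where 4.06% were (at limma's unadjusted p under 0.05, 5 and 0). Cdkn1a, at -0.24, was called lower when 0.25 rather than 1 was added before the log (-1.2, adjusted p = 0.0209) and stood at 0.22 with 4 added, so its direction here depends on the added constant. For Mdm2 the adjusted p was 0.0734 and for Plk2 0.0639, with Plk2 called without WT unstimulated replicate 1 (0.0187) or WT inhibitor replicate 3 (0.0496) and Mdm2 without KO stimulated replicate 1 (0.0438) or 2 (0.0427), with rescaled protein-coding genes (0.0408) and with the 4 groups alone (0.0478). Phlda3 was no longer called without WT unstimulated replicate 3 (adjusted p = 0.0579) or KO inhibitor replicate 1 (0.0652). The contrast itself sets no stimulated library without inhibitor against another, though the inhibited and the unstimulated ones labelled KO also entered the contrasts that chose the genes.

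**Figure D3:**
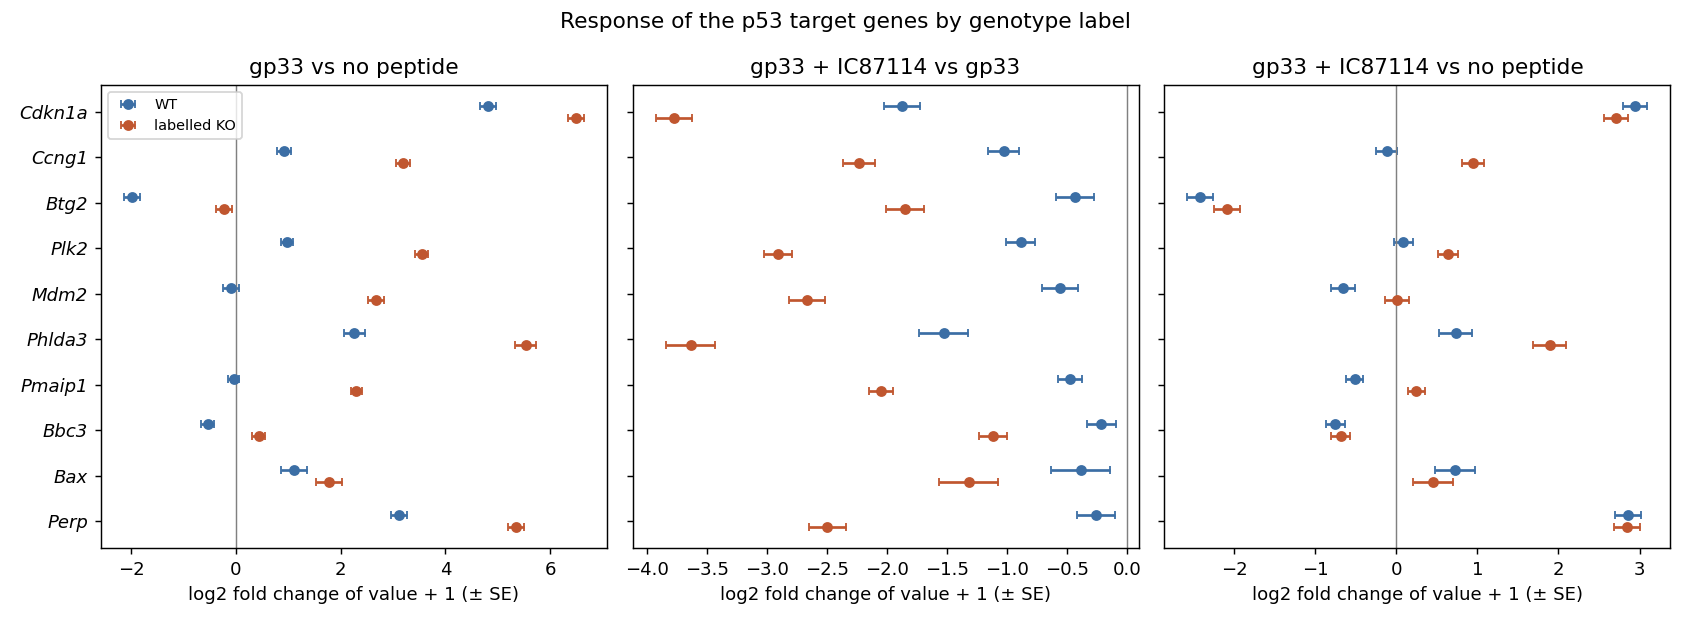
Log2 fold changes of value + 1 (± SE from limma) for each p53 target gene in WT (blue) and in libraries labelled KO (orange), for gp33 against no peptide, for gp33 with IC87114 against gp33, and for gp33 with IC87114 against no peptide. The points of the 2 labels separate most in the first and second panels, which the choice of genes used, and Ccng1, Pmaip1 and Phlda3 differ in the third.

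In the 4 groups given gp33, the highest and lowest values of the 10 genes often fell in the same library. Among stimulated libraries labelled KO, replicate 1 was the lowest for 10 of 10 genes and replicate 2 the highest for 9, with Pmaip1 the exception. Among inhibited libraries labelled KO replicate 1 was the highest for 9 genes, all but Bax. Among stimulated WT libraries replicate 1 was the highest for 8 genes and replicate 3 the lowest for 7, and WT inhibitor replicate 2 was the lowest of its group for 7 genes and the highest for Bax and Bbc3. In the unstimulated groups no library was the highest for more than 5 genes or the lowest for more than 6. The genes of 1 library share that library, so this is a description of these libraries with no test.

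A further 40 p53 targets were listed, and 26 of them had values high enough to test. They are genes that were not picked as rising most, so their counts do not stand for the whole pathway. Of the 26, 6 (Sesn2, Tnfrsf10b, Zmat3, Plk3, Ak1 and Abhd4) passed the filter only through the stimulated libraries labelled KO. This tilts those 6 towards being higher in that group. For contrasts with that group, the counts below come from a fit whose filter ignores it, which kept 20 of these targets among 10007 genes, while values of single genes come from the fit of 10257. In stimulated cells 13 of the 20 were higher in libraries labelled KO, where 13.7% of all genes in that fit were, and 1 was lower, where 9.11% were. Their median log2 fold change was 0.64 against -0.004 for all genes. With the 6 genes included 19 of 26 were higher and 1 lower. Here and below, counts over all 26 in contrasts with stimulated libraries labelled KO are raised by the filter. They are given for completeness and are not a result about the targets.

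Psrc1, a microtubule-binding protein of the spindle, was near 0 without peptide, as Cdkn1a was in WT. It had 0, 0.344 and 0.0127 in unstimulated WT, 9.67, 8.5 and 7.62 with gp33 and 1.52, 1.44 and 1.57 with inhibitor. In libraries labelled KO it had 0.138, 0.304 and 0.187, then 37.4, 49.5 and 46.4, then 7.06, 5.85 and 4.86. Its groups did not overlap between labels with gp33 (log2 fold change 2.24, SE 0.14, limma adjusted p = 5.37e-08) or with inhibitor (1.45, SE 0.14, limma adjusted p = 2.71e-05).

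Trp53inp1, a p53 cofactor that promotes death and autophagy, resembled Btg2. WT libraries had 6.37, 3.99 and 4.7 without peptide, 0.869, 0.665 and 0.761 with gp33, and 0.584, 0.339 and 0.532 with inhibitor. Those labelled KO had 2.93, 3.13 and 3.18 without peptide, 5.34, 11 and 7.36 with gp33, and 0.825, 0.664 and 0.644 with inhibitor. gp33 thus lowered it in WT (log2 fold change -1.75, limma adjusted p = 5.66e-07) and raised it in libraries labelled KO (1.07, limma adjusted p = 9.8e-05), and the difference between these responses was 2.83 (SE 0.26, limma adjusted p = 4.84e-06).

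Sesn2, a stress-induced inhibitor of mTORC1, went from 0.479, 0.318 and 0.367 in stimulated WT to 2.6, 3.12 and 2.69 in stimulated libraries labelled KO. Ak1, an adenylate kinase, was listed at 0 in all 6 unstimulated libraries and stood at 0.0771, 0.0365 and 0.0345 against 1.77, 3.37 and 2.43 with gp33. Both are among the 6 genes that the filter admitted through this group, so no test is given for them. Slc19a2, a thiamine transporter, was at 1.3, 1.19 and 1.16 against 3.7, 5.22 and 4.79 (1.32, SE 0.09, limma adjusted p = 9.84e-08). Fas, the death receptor, was at 1.34, 1.16 and 1.33 against 3.9, 6.17 and 5.58 (1.43, SE 0.13, limma adjusted p = 2.07e-06). Tigar, which lowers glycolytic flux, was the 1 target that was lower, at 1.12, 1.28 and 1.26 in WT against 0.904, 0.705 and 0.84 (-0.29, SE 0.07, limma adjusted p = 0.00955), and without KO stimulated replicate 2 its adjusted p was 0.0527.

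Not every p53 target joined in. Sesn1, the sestrin relative of Sesn2, stood at 0.171 ± 0.00728 in stimulated WT and 0.178 ± 0.0208 in stimulated libraries labelled KO (log2 fold change 0.01, limma adjusted p = 0.952), after a fall with gp33 in both labels. In unstimulated libraries labelled KO it was lower than in WT, at 1.3 ± 0.0812 against 2.95 ± 0.427 (-0.78, SE 0.07, limma adjusted p = 2.05e-06). Gadd45a, a stress-response gene of the cell cycle and DNA repair, was also lower there, at 4.13 ± 0.558 against 7.41 ± 2.01 (-0.69, SE 0.16, limma adjusted p = 0.0095). In a fit of the 2 unstimulated groups alone Gadd45a had an adjusted p of 0.126. These were 2 of 26 targets lower, near the 7.23% of all genes tested, and 0 higher, where 5.69% were, and limma's unadjusted p under 0.05 gave 3 and 4. The members Cdkn1a and Pmaip1 went the other way in the same libraries.

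IC87114 lowered the further targets in libraries labelled KO, with 13 of the 20 lower, where 18% of all genes in that fit were, and 0 higher, where 9.32% were (median log2 fold change -0.87 against -0.037 over all genes). At an unadjusted p under 0.05 limma gave 15 lower and 1 higher. Over all 26, a count raised by the filter, 19 were lower, where 19.3% of the 10257 genes were, and 0 higher, where 9.17% were. Psrc1 fell by 2.72 on the log2 scale (limma adjusted p = 5.73e-09) and Slc19a2 fell by 1.62 (limma adjusted p = 9.5e-09). Sesn2 and Ak1, given without a test, had 0.287, 0.221 and 0.196 and 0.0124, 0.0188 and 0.0129 with inhibitor. In WT 8 of 26 were lower, where 5.15% of all genes tested were, and 0 were higher, where 3.31% were (unadjusted, 9 and 2). The WT examples were Psrc1 (-1.93, SE 0.14), Lif (-0.96, SE 0.08), a cytokine gene, Slc19a2 (-0.56, SE 0.09) and Ddit4 (-0.96, SE 0.18), an inhibitor of mTORC1. That count was 4 or 5 when any 1 stimulated WT library or WT inhibitor replicate 2 was left out.

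The difference between labels in the response to IC87114, inhibited against stimulated cells, was negative for 9 of the 20 further targets, where 5.49% of all genes in that fit were, and positive for 0, where 3.14% were (unadjusted, 12 and 1). Over all 26, again with the 6 genes that the filter admitted through this group, it was negative for 15 and positive for 0. Of the 10257 genes 6.47% were negative and 3.27% positive. It was -1.06 for Slc19a2 (SE 0.13, limma adjusted p = 0.000104) and -1.51 for Fas (SE 0.18, limma adjusted p = 0.00013). gp33 itself raised 15 of the 20 and lowered 4 in libraries labelled KO, where 40.2% and 28% of all genes in that fit were called (21 and 4 of all 26, where 41.1% and 27.3% of the 10257 were). In WT gp33 raised 13 and lowered 6 of the 26, where 42.1% and 31.6% of the 10257 genes were called. The response to gp33 differed upward for 13 of the 20, where 14.5% of genes did, and downward for 1, where 9.72% did. Over all 26 and 10257 genes the counts, raised by the filter, were 19 and 1, beside 15.7% and 9.6%. The 1 lower was Tigar (-0.35, SE 0.10, limma adjusted p = 0.0223). The Tigar call was lost without any 1 of 5 libraries, WT unstimulated replicate 1, WT stimulated replicate 2 or 3, KO unstimulated replicate 1 or KO stimulated replicate 2 (adjusted p 0.0502 to 0.0618). These contrasts share the stimulated libraries labelled KO with each other and with those that chose the 10 genes, so they are not separate evidence. With inhibitor present 2 of 26, Psrc1 and Lif (0.40, SE 0.08, limma adjusted p = 0.0115), were higher in libraries labelled KO, where 2.01% of all genes tested were. In that comparison 0 were lower, where 2.61% were (limma unadjusted, 7 higher and 1 lower). Without KO inhibitor replicate 3 the adjusted p of Lif was 0.0689.

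**Figure D4:**
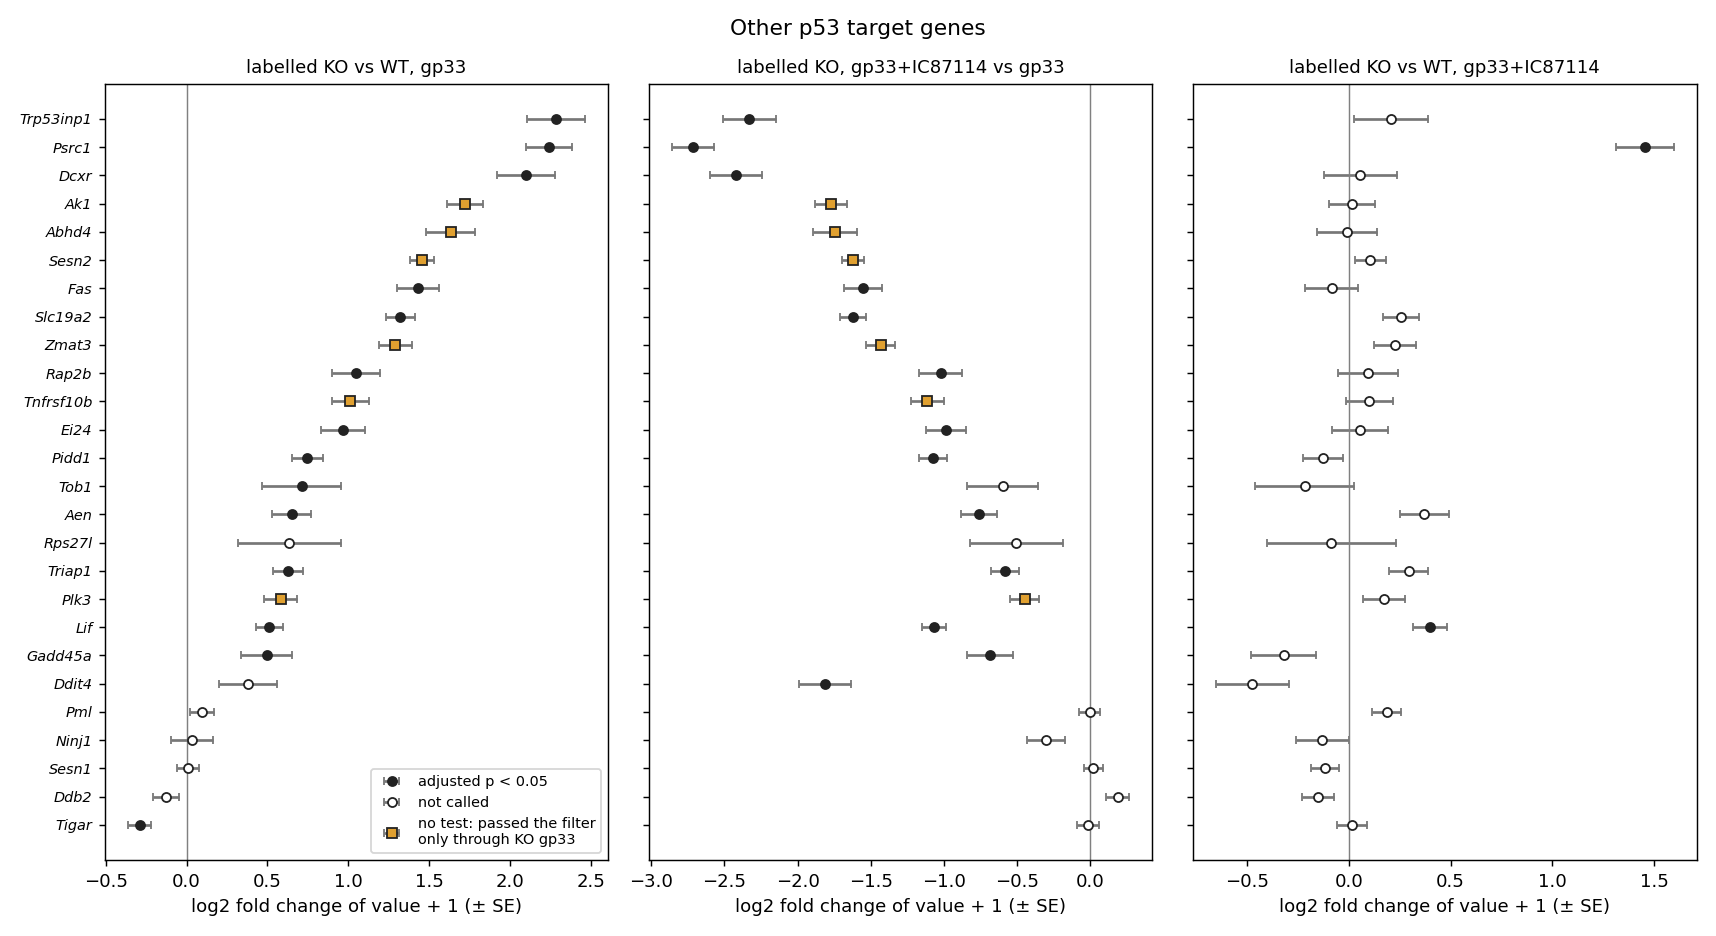
Log2 fold changes of value + 1 (± SE) for the 26 further p53 targets tested, between stimulated labels, for IC87114 in libraries labelled KO, and between labels under IC87114. Filled circles have a limma adjusted p under 0.05, and squares in the first and second panels are the 6 genes that passed the filter only through stimulated libraries labelled KO and have no test there. Most points lie right of 0 in the first panel and left of 0 in the second, while Psrc1 and Lif are the filled points in the third.

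Among the regulators of p53, 6 of 18 listed genes could be tested. The message of Trp53 itself, which encodes p53, had group means of 7.11 to 8.5. It was at 7.42, 7.45 and 7.18 in stimulated WT and 7.48, 6.72 and 7.13 in stimulated libraries labelled KO, which overlapped (log2 fold change -0.04, SE 0.10, limma adjusted p = 0.802). Mdm4, the MDM2 relative that binds and restrains p53, was at 0.499, 0.452 and 0.418 against 0.942, 1.1 and 0.963 (0.46, SE 0.06, limma adjusted p = 4.77e-05). Rchy1, the p53-directed ubiquitin ligase PIRH2 and itself a p53 target, was at 5.51, 4.74 and 5.09 against 7.65, 9.44 and 8.97 (0.66, SE 0.08, limma adjusted p = 4.38e-05). These were the 2 of 6 that were higher, where 14.9% of all genes tested were, and 0 were lower, where 9.09% were, also at limma's unadjusted p under 0.05. Kat5, an acetyltransferase of p53, was at 1.41 ± 0.187 against 1.88 ± 0.172 (0.26, limma adjusted p = 0.147).

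IC87114 in libraries labelled KO lowered Rchy1 (-0.69), Mdm4 (-0.41), Kat5 (-0.46) and Daxx (-0.37, limma adjusted p = 0.0464), a nuclear adaptor that binds MDM2 and was named after its value was seen. These were 4 of 6, where 19.3% of all genes tested were lower, with 0 higher, where 9.17% were (limma unadjusted, 5 and 1). Both Mdm4 and Rchy1 were also lower after gp33 in WT, by -0.75 and -1.63 on the log2 scale, so their higher level in stimulated libraries labelled KO was a smaller loss and not a rise above resting cells. Resting WT libraries had 1.41, 1.39 and 1.53 for Mdm4 and 18.9, 16.6 and 18.4 for Rchy1.

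Cell cycle genes that p53 and p21 are known to repress moved in part. Of 19 tested, 5 were lower in stimulated libraries labelled KO than in stimulated WT, where 9.09% of all genes tested were, and 1, Ccne2 (cyclin E2), was higher, where 14.9% were, and limma's unadjusted p under 0.05 gave 8 and 1. Plk1, a mitotic kinase, was at 4.27, 4.26 and 3.64 in WT against 2.62, 1.87 and 1.88 (log2 fold change -0.70, SE 0.10, limma adjusted p = 0.000188). Aurka, a spindle kinase, was at 10.5, 11.8 and 11.6 against 6.43, 4.36 and 5.98 (-0.91, SE 0.20, limma adjusted p = 0.00354). Ccnb1, the mitotic cyclin B1, was at 24.4, 25.4 and 24.5 against 16.6, 11 and 15.5 (-0.77, SE 0.21, limma adjusted p = 0.0162). The other 2 were Ccne1 (-0.60) and Cdk1 (-0.60), named like Ccne2 after their values were seen. Ccne1, cyclin E1, had a lower mean in libraries labelled KO under each condition, at 0.991 ± 0.248 against 1.81 ± 0.0854 without peptide, 7.52 ± 2.01 against 11.7 ± 0.708 with gp33 and 7.67 ± 1.85 against 11.2 ± 2.39 with inhibitor. Its difference passed the threshold with gp33 alone (adjusted p by limma of 0.0986 without peptide and 0.177 with inhibitor), and IC87114 gave no call for it in libraries labelled KO (0.03, limma adjusted p = 0.929). In the same 3 stimulated libraries labelled KO, replicate 2 had the most of 9 of the 10 p53 targets and the least Aurka, Ccnb1 and Cdk1, while replicate 1 had the least Ccne1. The genes of 1 library share that library, so this order is a description with no test and no share over all genes. The number lower was 2 to 7 when single libraries were left out, at its smallest without KO stimulated replicate 2 or WT stimulated replicate 2. It was 3 without WT stimulated replicate 1 or 3, and the adjusted p of Ccnb1 was 0.0911 without KO stimulated replicate 2 and 0.0526 without WT stimulated replicate 2.

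IC87114 raised 12 of the 19 in libraries labelled KO, where 9.17% of all genes tested were higher, and lowered Ccne2 (-0.64), where 19.3% were lower. In WT limma called 0 in either direction, and 2 were higher and 0 lower at an unadjusted p under 0.05. Plk1 went to 5.76, 6.11 and 5.56 in inhibited libraries labelled KO, above all 3 of stimulated WT (change 1.13, SE 0.10, limma adjusted p = 1.62e-06). Aurka went to 14.6, 16.4 and 16 (1.35, SE 0.20, limma adjusted p = 0.000137) and Prc1, a spindle midzone protein, to 6.31, 6.14 and 6.73 from 3.65, 2.89 and 3.55 (0.76, SE 0.12, limma adjusted p = 0.000325). The response to IC87114 differed between labels for Plk1 (1.23, SE 0.15, limma adjusted p = 0.000104), Aurka (1.42), Ccnb1 (1.43) and Prc1 (0.65). In this difference 4 of the 19 were called higher, where 3.27% of all genes tested were, and 1 was called lower, where 6.47% were (limma unadjusted, 8 and 1). gp33 itself had raised 18 of the 19 in WT and 18 in libraries labelled KO, where 42.1% and 41.1% of all genes tested were higher, with a median of 2.12 and 1.65 on the log2 scale.

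**Figure D5:**
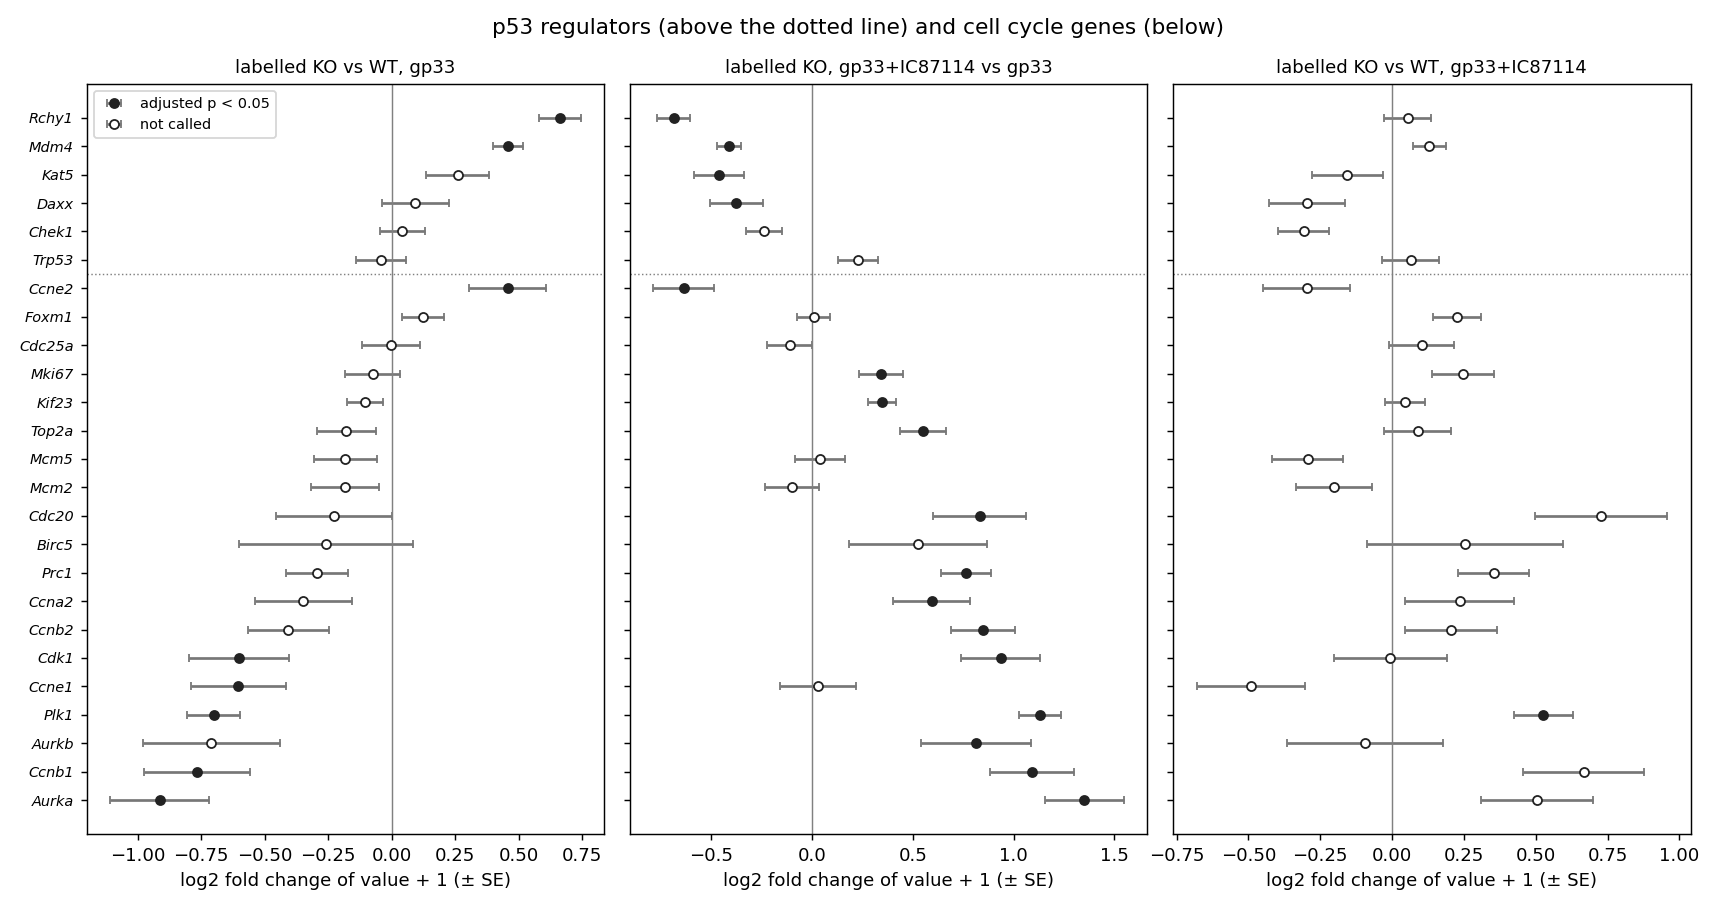
Log2 fold changes of value + 1 (± SE) for regulators of p53 (above the dotted line) and cell cycle genes (below it), between stimulated labels, for IC87114 in libraries labelled KO, and between labels under IC87114. Filled points have a limma adjusted p under 0.05. Trp53 lies near 0 in the first panel, Rchy1 and Mdm4 lie above it, and Plk1, Aurka and Ccnb1 change sides between the first panel and the second.

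The genes outside the list whose 6 group means most resembled the average of the 10 were Septin2, Wbp11, Dda1, Pim1, Rnf4, Fam177a2, Junb and Arcn1, in this order. Likeness was the mean absolute difference of standardised group means over the 6 groups, 0.148 for Septin2 and 0.246 for Arcn1, against a median of 0.99 over 2738 candidate protein-coding genes. The 10 genes themselves lay 0.148 (Plk2) to 0.959 (Btg2) from their average, so it stands poorly for Btg2 and for Bbc3 (0.642). Septin2, a filament-forming GTPase, averaged 24.4 in stimulated libraries labelled KO, 9.63 in stimulated WT and 6.32 to 8.13 in the other 4 groups. Junb, an AP-1 transcription factor, averaged 136 against 60.8, and Pim1, a survival kinase, 8.78 against 2.79. These 8 were named for their group means, so the values carry no test.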

How the data were processed

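RNA was sequenced in bulk from 18 libraries, 6 groups of 3. The deposited values are normalized gene values on a log scale. Neither the base nor an added constant is stated in the labels or the file, and the deposited values were taken as log2(value + 1), which is an assumption. GRCm38 and GRCm39 appear in the submitters' processing notes without a role, and neither the aligner nor the sequencing depth is stated there or in the labels. The values were not whole reads, so no count model was used.

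Genes at a value of 1 or more in at least 3 libraries were kept (10257 of 23414, of which 5800 are protein-coding). limma 3.58.1 in R 4.3.3 was fitted to log2(value + 1) with 1 mean per group (12 residual degrees of freedom, trended robust variances with statmod 1.5.0), and p-values of each of 12 contrasts were adjusted over all genes by Benjamini-Hochberg at 0.05. Fold changes on this scale understate changes of low genes. The script was tested on simulated data. The last contrast, a difference between genotypes in the change from no peptide to inhibitor, and alternatives with natural logs or a filter that leaves out the stimulated KO group were added after the data were seen. Counts of further targets in contrasts with the stimulated KO group use that filter.

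The 10 genes, all gene lists and the tests were chosen with earlier results of these data known. Named are the 10 genes, Pik3ip1, Trp53 and Mdm4, the 4 further targets with the smallest p per contrast (plus up to 4 called the other way), the 3 regulators and 3 cell cycle genes with the smallest p between stimulated genotypes and for the inhibitor in KO, and the 8 nearest profiles. A gene named in 1 contrast may be given in another. Nearest profiles were sought among protein-coding genes. Replicate numbers were not used as pairs in the main fit. Correlations of deviations in same-numbered pairs ran from -0.0302 to 0.221, with 4 of 18 above 0.1, and 10 of 18 libraries correlated best with their own number. Library names share a letter within each genotype and replicate number, whose meaning is not stated, so a shared source is not excluded. Alternatives were another added constant, other filters, rescaling, an untrended fit, the groups compared alone, a replicate block and leaving out each library.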

Additional observations from a re-analysis of the deposited data

Results flagged for a closer look

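The following values differ between genotypes as labelled, by a test of the difference itself in limma with Benjamini-Hochberg adjustment. For the change from no peptide to gp33 with IC87114, the labelled KO minus WT difference was 1.06 for Ccng1, 0.76 for Pmaip1 and 1.16 for Phlda3 on the log2 scale, with adjusted p of 0.00222, 0.00391 and 0.0229. For the response to gp33 it was 1.43 for Slc19a2, 2.83 for Trp53inp1 and -0.35 for Tigar. For the response to IC87114 in stimulated cells it was -1.06 for Slc19a2 and -1.51 for Fas.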

How the results depend on the processing

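Of 118 single-gene results, 92 kept their call under each of the 29 alternatives that tested the gene, and 26 changed it in at least 1. Not every alternative tested every gene. A filter at 5 kept 9 of the 26 further targets, and the filter outside stimulated KO kept 20. The 118 include Sesn2 and Ak1 in contrasts with stimulated KO, where their calls lean on the filter and are not a result. The estimates of 10 results, between -0.27 and 0.11 and not called, turned sign in some alternative and were called in 0 of those (smallest adjusted p by limma 0.451). Among the 10 genes, a filter at 5 (9 tested) or outside the stimulated KO group left 1 call of lower for gp33 in WT and 1 for inhibited against unstimulated KO, each 2 in the main analysis. Adding 4 left 1 of 2 higher between unstimulated genotypes. Of 4 higher under inhibitor, adding 0.25 left 2, the 2 groups alone left 1, and leaving out single libraries gave 2 to 5.

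For further targets, a filter at 5 (9 tested) gave 7 higher and 0 lower between stimulated genotypes, 6 lower for inhibitor in KO and 2 in WT, 7 and 2 for gp33 in KO, 5 and 3 for gp33 in WT, 1 lower between unstimulated and 1 higher between inhibited genotypes, 6 and 0 for the gp33 response difference and 4 lower for that of the inhibitor (9 with the filter outside stimulated KO). The groups compared alone gave 5 lower for inhibitor in WT, 1 lower between unstimulated and 1 higher between inhibited genotypes. Where the main count was 0, 1 was called for inhibitor in KO (added 0.25, median scaling, groups alone), for inhibitor in WT (added 0.25), between unstimulated genotypes (added 0.25, no filter, median scaling, natural logs) and for the inhibitor response difference (protein-coding rescaled, median scaling). Leaving out single libraries gave 0 to 1 lower between stimulated genotypes, 0 to 1 higher for inhibitor in KO, 0 to 1 higher and 4 to 8 lower in WT, 0 to 2 higher between unstimulated and 1 to 3 between inhibited genotypes, 0 to 2 lower for the gp33 response difference and 0 to 1 higher for that of the inhibitor.

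For regulators, a filter at 5 gave 1 higher between stimulated genotypes and 2 lower for inhibitor in KO. There 1 was higher with median scaling or the groups alone, and 0 to 1 without single libraries. For cell cycle genes between stimulated genotypes, 0 were higher with 0.25 added, no filter, median scaling or the block, and 3 (0.25 added) or 8 (median scaling) were lower. Without single libraries 0 to 1 were higher and 2 to 7 lower, and 0 to 1 higher for inhibitor in WT.

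In the contrasts that chose the 10 genes, adding 4 gave medians of 1.89 and 2.04 (stimulated KO against WT and against unstimulated KO), -1.94 (inhibitor in KO) and -0.33 (in WT). Natural logs gave 3.41, 4.23, -3.42 and -0.75, and either filter 3.18 for stimulated against unstimulated KO. The replicate block changed the count of lower targets for the gp33 response difference from 1 to 0, and higher cell cycle genes from 1 to 0. Of the 10 genes it took the call from Cdkn1a under inhibitor (adjusted p = 0.0552) and from Pmaip1 for inhibited against unstimulated KO (adjusted p = 0.0582), both by limma. Over 18 libraries, 10 correlated best with their own number. Where no construction shows it, the cause was not tested. Depth is unknown, and with 3 libraries a group small differences could not be detected.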
